A study of Mus musculus with 6 samples.

Results

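The mitochondrial respiratory chain was examined at the transcript level in lymph node T cells with and without Ezh2. The members were all array probe sets with a single gene symbol that starts with Nduf, Uqcr, Atp5, Cox4, Cox5, Cox6, Cox7 or Cox8, or that is Sdha, Sdhb, Sdhc, Sdhd or Cycs. There were 183 such probe sets of 91 genes among the 45101 probe sets on the array, which names 18193 genes by a single symbol. The series holds 6 single-colour Affymetrix mouse arrays of total RNA, 3 of Ezh2 fl/fl lymph node T cells (the controls) and 3 of Ezh2 deficient ones. Ezh2 is the methyltransferase subunit of Polycomb repressive complex 2, which marks silenced genes, and fl/fl is the usual notation for 2 alleles flanked by loxP sites. The labels give no Cre driver, sex, age or batch, and do not say whether animals were pooled or whether the arrays come from separate animals, so any p-value speaks only of the spread among these 6 arrays, which may be technical. In bulk RNA, fewer cells of a type and less RNA per cell cannot be told apart.

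The respiratory chain passes electrons from NADH and succinate to oxygen and pumps protons across the inner mitochondrial membrane. Complex I (Nduf genes) and complex II (Sdh genes) take up the electrons, complex III (Uqcr genes) hands them to cytochrome c (Cycs), complex IV (Cox genes) reduces oxygen, and complex V, the ATP synthase (Atp5 genes), uses the proton gradient to make ATP. Resting T cells draw most of their ATP from this pathway, and cytochrome c released from the chain also sets off apoptosis. Most subunits are encoded in the nucleus, and the rest in mitochondrial DNA.

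The arrays carried T cell markers. Of the T cell markers listed for the check, 10 of 10 with a probe set lay above the intensity filter, whereas Cd79a, Cr2 and Fcer2a of the 7 B cell markers, Cd14 and Itgam of the 6 macrophage markers, Flt3 and Batf3 of the 6 dendritic cell markers, Ncr1 of the 4 natural killer markers, S100a8 and S100a9 of the 3 neutrophil markers, Col3a1 and Cdh5 of the 6 stromal and endothelial markers, and Alas2 and Slc4a1 of the 3 erythroid markers lay below it. Above it lay 4 B cell, 4 macrophage, 4 dendritic cell and 3 natural killer markers. So did 4 stromal and endothelial markers, 1 neutrophil and 1 erythroid marker. The check therefore does not show that other cells were absent. The single Ezh2 probe set read 579, 684 and 801 in the Ezh2 fl/fl arrays and 282, 289 and 276 in the deficient arrays (a log2 difference of -1.16, with limma adjusted p = 0.0705 over all probe sets). Which part of Ezh2 is deleted is not in the labels, so the probe set checks them only if it lies in that part. Median deposited intensities ran from 163.3 to 188.1, and Ezh2 fl/fl replicate 1, the array at 188.1, stood apart. Some values are therefore also given without it, but not every value that moved. Under quantile normalisation the highest log2 difference in complex II was 0.23 with that array and 0.50 without it.

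The genes of the chain are known to share promoter motifs for a small set of transcription factors, and the sequences below show these motifs in genes whose values are described further on. RefSeq promoter windows of GRCm38.p6, from 250 bases before to 50 bases after a start, were at hand for 75 of the 91 genes, as 80 windows. The motifs searched on both strands were GCGCA, any base and GCGC in a row for NRF1, CGGAAG for ETS factors such as GABPA, AAGATGGC for YY1 and CCAAT for NF-Y. The NRF1 motif was in 18 of the 80 member windows (22.5%), against 4.60% of all 32851 windows. The ETS core was in 36 (45.0%), against 16.9% of all windows, the YY1 motif in 10 (12.5%, against 2.75%), and the NF-Y motif in 34 (42.5%, against 37.4%). A longer spelling of the ETS core, CCGGAAGT, was in 5 (6.25%, against 3.89%). The median log2 difference under quantile normalisation was -0.04 over the 17 tested genes with the NRF1 motif and -0.05 over the 54 without it, -0.04 over the 35 with the ETS core and -0.05 over the 36 without it, and -0.04 over the 10 with the YY1 motif and -0.05 over the 61 without it. It was -0.08 over the 30 with the NF-Y motif and -0.03 over the 41 without it, and -0.08 over the 5 with the longer ETS spelling and -0.05 over the 66 without it. For the NRF1 motif with T at its free base, found in 6 windows, it was -0.09 over 6 genes and -0.04 over the 65 others. None of these differences was tested. A match of letters is a description and shows no binding. In the 100 bases printed for each of the following genes, which all lie before the start, capitals mark the NRF1 motif or the ETS core on either strand.
Atp5e (chr2:174464144-174464243, minus strand): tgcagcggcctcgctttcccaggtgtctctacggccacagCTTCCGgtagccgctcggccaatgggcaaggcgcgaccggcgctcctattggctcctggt
Atp5l (chr9:44920893-44920992, minus strand): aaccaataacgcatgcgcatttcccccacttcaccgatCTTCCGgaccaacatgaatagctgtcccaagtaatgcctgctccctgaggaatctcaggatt
Ndufaf4 (chr4:24897930-24898029, plus strand): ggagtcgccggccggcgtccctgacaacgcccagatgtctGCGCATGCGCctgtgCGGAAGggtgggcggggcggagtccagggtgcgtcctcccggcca
Cox6a1 (chr5:115349061-115349160, minus strand): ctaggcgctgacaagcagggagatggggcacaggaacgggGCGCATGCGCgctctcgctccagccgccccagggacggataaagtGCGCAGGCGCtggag
Uqcr11 (chr10:80406827-80406926, minus strand): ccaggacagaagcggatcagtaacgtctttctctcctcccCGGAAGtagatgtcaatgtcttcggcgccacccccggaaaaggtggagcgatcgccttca
Atp5e, Atp5l and Uqcr11 show the ETS core, Cox6a1 shows the NRF1 motif at 2 positions, and Ndufaf4 shows both. The transcripts of the factors themselves, picked because their motifs were searched, overlapped between the groups: Nrf1 averaged 926 ± 80.1 in the Ezh2 fl/fl and 884 ± 55.1 in the deficient arrays, Gabpa 1495 ± 75.8 and 1449 ± 97.6, and Yy1 5970 ± 194 and 6200 ± 172 (SD, n = 3 each). All these levels are quantile-normalised intensities, as are those below unless stated.

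Did loss of Ezh2 go with a different level of respiratory chain transcripts? No single member passed the test, and the members as a group lay slightly lower in the deficient T cells under quantile normalisation. Under the deposited scaling the members' median, -0.021, was close to that of all tested probe sets, -0.017. Median centring, which adds 1 constant to every probe set, put the members above 0 together with the probe sets as a whole. Of the 183 probe sets, 167 of 86 genes passed the filter on dim probe sets and were tested. None of the 167 was called by limma at a Benjamini-Hochberg adjusted p under 0.05 (the smallest was 0.483, for Ndufa10), while 0.0037% of all tested probe sets were, and none under the deposited scaling, where 0.0111% of all were. At an unadjusted p under 0.05, 12 members (7.19%) were lower and 1 (0.599%) higher, against 3.38% lower and 3.84% higher over all 27022 tested probe sets. Under quantile normalisation 126 of the 167 members were lower in the deficient arrays (75.4%, against 50.7% of all tested probe sets), with a median log2 difference of -0.053, which is 96.4% of the control level, against -0.003 for all probe sets.

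Set against all tested probe sets, the size of this shift depended on the scaling. For bright members set against bright probe sets it changed little, as given further on. Under the deposited scaling, in which the arrays share a trimmed mean, 103 members were lower (61.7%, against 54.4% of all tested probe sets), with a median of -0.021 against -0.017, and 7 were lower and 0 higher at an unadjusted p under 0.05 (4.19%, against 4.01% lower and 3.35% higher). The 4.19% lower was near the background of all tested probe sets. The share among bright probe sets is given further on. Centring the deposited values on each array's median adds 0.068 to the log2 difference of every probe set, members or not, so the sign of the members' median turned with that of all probe sets. There 54 members were lower (32.3%, against 37.9%), and the medians were 0.047 for the members and 0.051 for all. Between quantile normalisation and the deposited scaling, 101 members were lower under both, 39 higher under both, 25 lower under quantile normalisation alone and 2 higher under it alone. Without Ezh2 fl/fl replicate 1 the deposited scaling gave 118 lower and 49 higher (70.7% lower, against 52.1%), with a median of -0.045, close to the 129 lower (against 51.2% of all tested probe sets), 38 higher and -0.058 of the quantile values without that array.

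**Figure D1:**
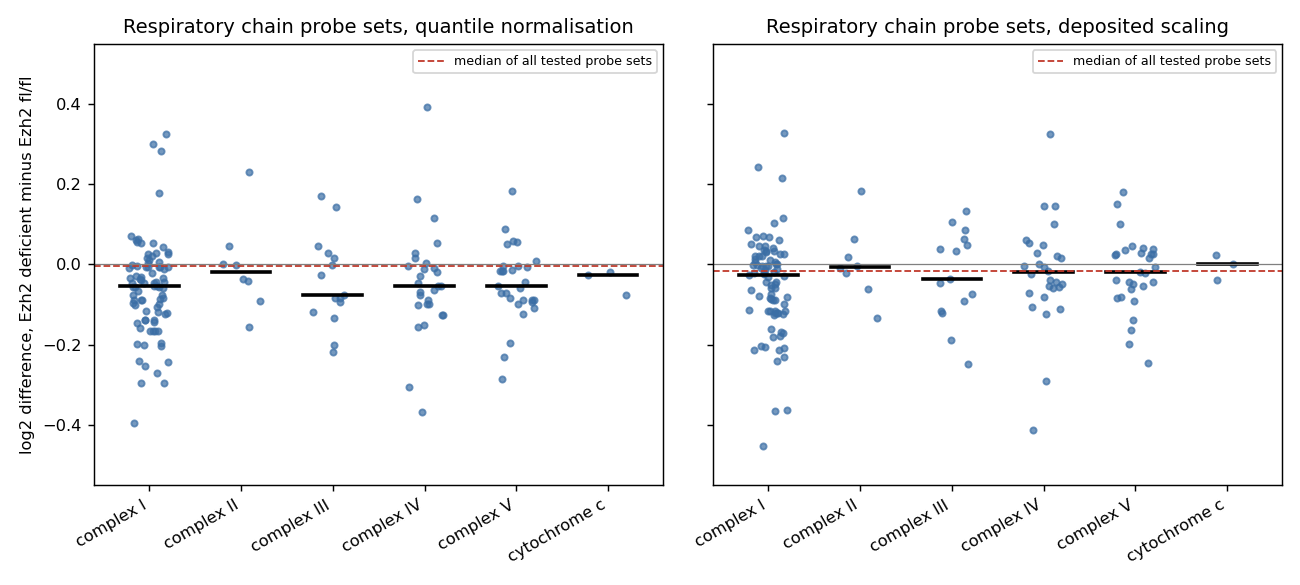
Log2 difference (Ezh2 deficient minus Ezh2 fl/fl, y axis) of each tested respiratory chain probe set by complex (x axis), under quantile normalisation (left) and the deposited scaling (right). Points are probe sets, black bars are medians, the dashed line is the median of all 27022 tested probe sets. The medians of complexes I to V lie between -0.076 and -0.019 on the left and between -0.037 and -0.0060 on the right, and between 0.030 and 0.061 when the deposited values are centred on each array's median (not drawn).

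Most members are bright. Of the 167 tested members, 126 lay in the brightest 20% of all tested probe sets. Among those 5405 the median of all probe sets was -0.006 under quantile normalisation, 0.027 under the deposited scaling and 0.095 with median centring. The members in it had medians of -0.053, -0.017 and 0.050. The members' medians minus those of all bright probe sets were thus -0.047, -0.044 and -0.044. Among them 101 of 126 members were lower under quantile normalisation (80.2%, against 52.4% of all 5405), 76 under the deposited scaling (60.3%, against 40.2%) and 33 with median centring (26.2%, against 18.4%). At an unadjusted p under 0.05 under the deposited scaling, 3.97% of the 126 members were lower and 0% higher. Of all 5405, 2.63% were lower and 6.11% higher there. The brightest 20% was chosen for this description after the values had been seen.

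**Figure D2:**
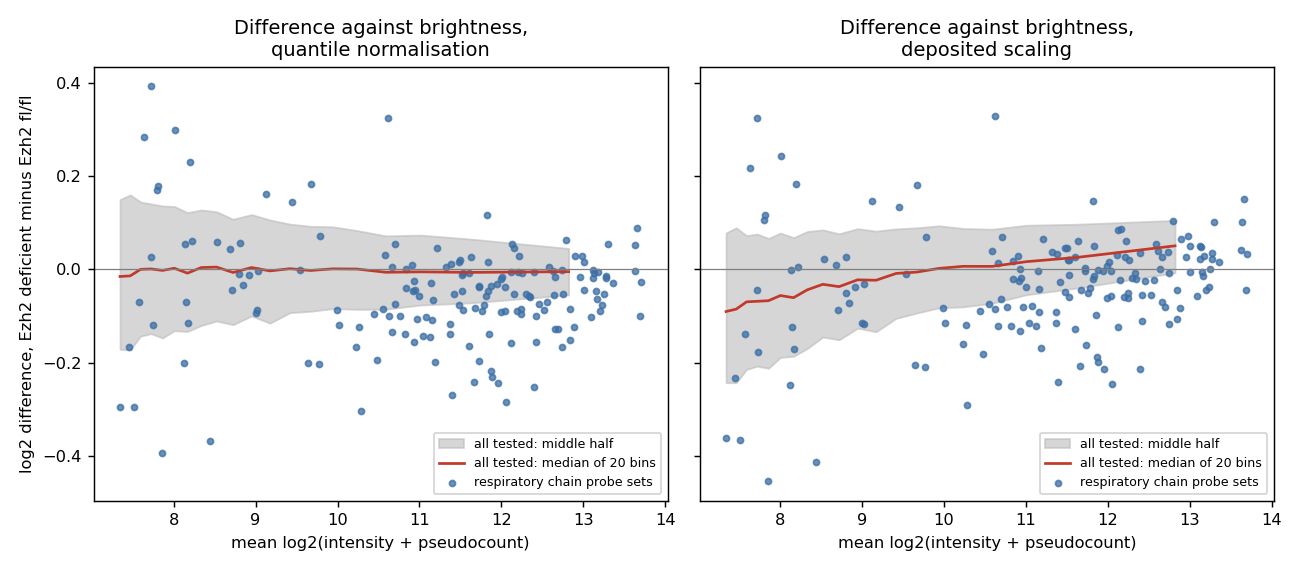
Log2 difference (Ezh2 deficient minus Ezh2 fl/fl, y axis) against mean log2(intensity + 43.3) (x axis) under quantile normalisation (left) and the deposited scaling (right). Blue points are respiratory chain probe sets, and the red line and grey band are the median and the quartiles of all tested probe sets in 20 bins of equal size. The red line is flat on the left, and on the right it climbs from -0.09 in the dimmest to 0.05 in the brightest bin.

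The standard error of a member's difference had a median of 0.08 on the log2 scale, against 0.14 over all probe sets. For 154 of the 167 members (92.2%, against 75.7% of all tested probe sets) the 95% interval of the difference lay within a 1.5-fold change in either direction. Bright probe sets in general were this close: within the control group the SD of the log2 values had a median of 0.094 for the members, 0.096 for the brightest 20% of all probe sets and 0.15 for all.

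The individual arrays show where the shift lies. Relative to the mean of the controls, the 167 members had a median of -0.019, -0.00025 and 0.0086 on control arrays 1, 2 and 3, and -0.066, -0.049 and -0.029 in deficient replicates 1, 2 and 3. Under quantile normalisation the groups therefore did not overlap, with deficient replicate 3 nearest to the controls, and the SD of these array medians was 0.014 for the controls and 0.019 for the deficient group (n = 3 each). Under the deposited scaling the same medians were -0.047, 0.020 and 0.021 in the controls and -0.037, -0.032 and 0.0045 in the deficient arrays. There the groups overlapped, because Ezh2 fl/fl replicate 1 was the lowest of all 6 arrays. The members' share of the summed deposited intensity of all probe sets was 1.89%, 1.95% and 1.95% in the controls and 1.85%, 1.87% and 1.93% in the deficient arrays, again with overlap. With quantile-normalised values the shares were 1.92%, 1.95% and 1.95% against 1.85%, 1.87% and 1.91%, which did not overlap.

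**Figure D3:**
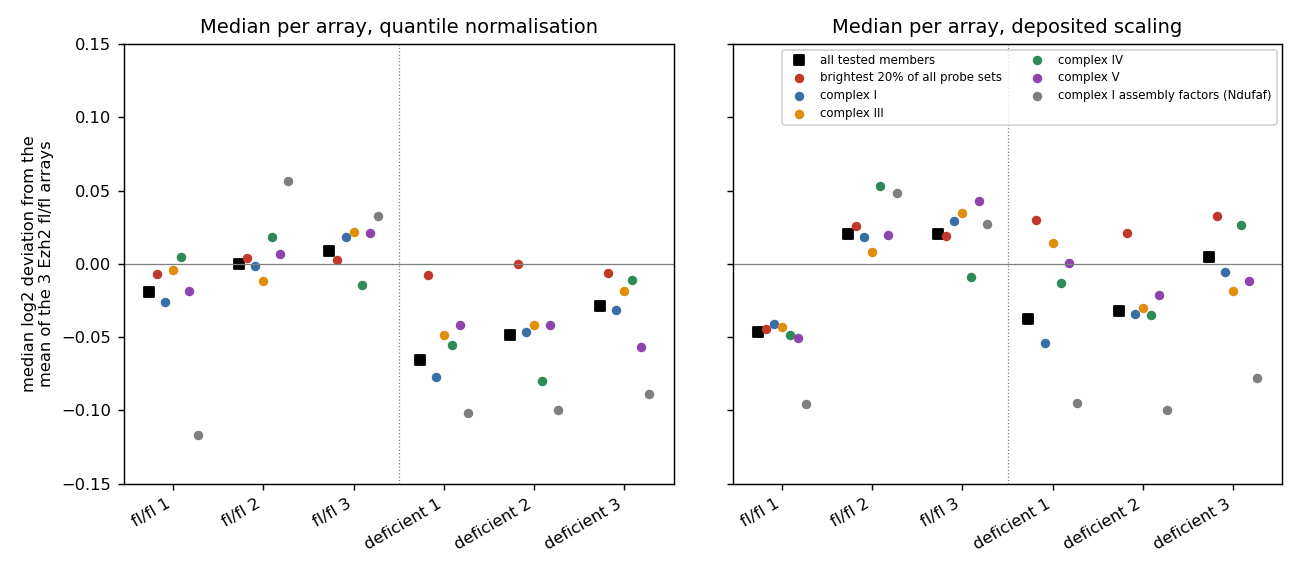
Median log2 deviation from the mean of the 3 Ezh2 fl/fl arrays (y axis) on each array (x axis), for all tested members (black squares), complexes I, III, IV and V, the Ndufaf assembly factors and the brightest 20% of all probe sets (coloured points), under both scalings. On the left the black squares of the deficient arrays (-0.066 to -0.029) lie below those of the controls (-0.019 to 0.0086), and on the right the black square of Ezh2 fl/fl replicate 1 (-0.047) is the lowest of the 6.

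Of the 167 members, 23 had groups that did not overlap with the deficient arrays lower (13.8%, against 6.54% of all tested probe sets) and 3 with the deficient arrays higher (1.80%, against 6.55%). Under the deposited scaling these were 10 (5.99%, against 7.66%) and 4 (2.40%, against 5.84%), both below the background. For bright members set against bright probe sets both were also below it there, at 3.97% against 4.98% lower and 0.794% against 9.97% higher. Without Ezh2 fl/fl replicate 1 the lower count lay above the background under either scaling. It was 32 under the deposited scaling (19.2%, against 12.5%) with 7 higher (4.19%, against 10.9%), and 39 under quantile normalisation (23.4%, against 12.1%) with 6 higher (3.59%, against 11.3%).

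Complex I is the largest complex and the entry point for electrons from NADH. Its 84 tested probe sets, counted with the 10 of the Ndufaf assembly factors, had a median of -0.053, with 64 lower and 20 higher. Under the deposited scaling 56 were lower with a median of -0.027, and with median centring 33 were lower with a median of 0.041. Without the Ndufaf probe sets, 54 of 74 were lower under quantile normalisation, with a median of -0.047. Under the deposited scaling 46 of the 74 were lower with a median of -0.017, and with median centring 24 with a median of 0.051. The medians of all tested probe sets were -0.017 and 0.051 there.

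Ndufa10, an accessory subunit of complex I, had the smallest p of all members. Its brighter probe set read 3495, 3475 and 3474 in the controls and 2975, 2883 and 2958 in the deficient arrays. The groups were far apart against their spread, with a log2 difference of -0.24 (SE 0.06), but the adjusted p over all probe sets was 0.483. Its other, dim probe set read 139, 198 and 91.5 in the controls and 183, 140 and 214 in the deficient arrays, with overlapping groups and a difference of 0.28, so the 2 probe sets of the gene disagreed in sign. Ndufb2, of the membrane arm, read 2851, 3032 and 2842 in the controls and 2277, 2484 and 2453 in the deficient arrays. These groups did not overlap either (log2 difference -0.27, SE 0.07, adjusted p = 0.520). The 2 remaining Ndufb2 probe sets gave -0.08 and -0.12. Under the deposited scaling the differences of Ndufa10 and Ndufb2 were -0.21 and -0.24, with non-overlapping groups for both.

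Ndufs8, an iron-sulfur subunit of the core, had 6 probe sets. The one with the smallest p read 3871, 4333 and 4640 in the controls and 3831, 3424 and 3560 in the deficient arrays (a log2 difference of -0.24, with adjusted p = 0.619), with a narrow gap between the groups under quantile normalisation and overlap under the deposited scaling. The others ran from -0.20 to 0.07, and 1 of the 6 was above 0. Affymetrix names this probe set _x_at, a class that can match several transcripts. Ndufa3, an accessory subunit named after its values were seen, was lower on all 3 probe sets, at -0.39, -0.25 and -0.17; its dim probe set read 218, 236 and 216 in the controls and 144, 179 and 157 in the deficient arrays, while the groups of its 2 bright probe sets overlapped. Ndufb10, also named after its values were seen, was at -0.16 with groups that overlapped only under the deposited scaling (adjusted p = 0.683).

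On the higher side of complex I, Ndufs4, an accessory subunit whose loss impairs the complex, read 1014, 1425 and 1744 in the controls and 1807, 1654 and 1694 in the deficient arrays (a log2 difference of 0.33, SE 0.16, with adjusted p = 0.713). The control replicate 1 was the low value, without which the difference was 0.12, the groups overlapped, and its 3 other, dimmer probe sets were at 0.04 to 0.06. Ndufa12 had a dim probe set at 0.30, with 199, 226 and 152 in the controls and 244, 243 and 246 in the deficient arrays, while its 3 bright ones lay between -0.08 and 0.02. Ndufb11, of the membrane arm, had probe sets at 0.06, 0.03 and -0.06.

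The Ndufaf genes encode factors that assemble complex I and do not stay in it. All 10 of their tested probe sets, of 8 genes, were lower under quantile normalisation and under the deposited scaling, and 9 of 10 with median centring, with medians of -0.092, -0.102 and -0.035. No one of them passed, and the smallest adjusted p was 0.694, for Ndufaf4. Its probe set read 813, 827 and 804 in the controls and 683, 751 and 678 in the deficient arrays, a log2 difference of -0.20, and its other probe set was at -0.10 with overlapping groups. Over the 10 probe sets the array medians were -0.117, 0.056 and 0.032 for controls 1, 2 and 3 and -0.102, -0.100 and -0.089 in the deficient arrays. Ezh2 fl/fl replicate 1 thus lay with the deficient arrays, and without it the median difference was -0.158 (-0.160 under the deposited scaling).

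Complex II joins the citric acid cycle to the chain and is wholly encoded in the nucleus. Its 8 tested probe sets had 5 lower and a median of -0.019 (5 lower and -0.0060 under the deposited scaling, 1 lower and 0.061 with median centring). Sdha, the flavoprotein subunit, read 4338, 4023 and 4108 in the controls and 3921, 3734 and 4039 in the deficient arrays on its brightest probe set. The groups overlapped only through deficient replicate 3 (log2 difference -0.09, adjusted p = 0.781), while 2 more tested probe sets gave 0.05 and 0.23. Sdhb, the iron-sulfur subunit, was at -0.04, with an interval from -0.17 to 0.10. The membrane anchors were no further from 0 on most probe sets: Sdhc was at -0.16 (-0.01 without Ezh2 fl/fl replicate 1) and 0.00 and Sdhd at -0.04 and -0.00, all with overlapping groups.

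Complex III carries electrons from ubiquinol to cytochrome c. Its 15 tested probe sets had 10 lower and a median of -0.076, the lowest median of the complexes under quantile normalisation, with 8 lower and -0.037 under the deposited scaling and 6 lower and 0.030 with median centring. That median depended most on deficient replicate 2, without which it was -0.010. With any other array left out it ran from -0.082 to -0.042. Uqcr11, a small subunit, read 1633, 1643 and 1676 in the controls and 1501, 1529 and 1473 in the deficient arrays (a log2 difference of -0.13, with adjusted p = 0.716). It was the only member of this complex whose groups did not overlap. That is 1 of 15 probe sets (6.67%), near the 6.54% of all tested probe sets that were lower without overlap. Uqcrc1, a core protein, read 3264, 4124 and 4718 in the controls and 3732, 3299 and 3255 in the deficient arrays. Its difference of -0.22 had an SE of 0.12, and control replicate 1 lay among the deficient arrays. The difference was -0.36 without that array and -0.10 without control replicate 3. Its partner Uqcrc2 was at 0.05 and -0.00. The small subunits Uqcrq and Uqcr10 had probe sets on both sides, from -0.20 to 0.17 and from -0.09 to 0.14.

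Cytochrome c carries single electrons to complex IV. Its 3 tested Cycs probe sets were at -0.08, -0.03 and -0.02 under quantile normalisation, at -0.04, 0.00 and 0.02 under the deposited scaling, and all 3 were above 0 with median centring. The probe set with the narrowest interval read 8750, 9067 and 8931 in the controls and 8564, 9117 and 8741 in the deficient arrays, and that interval ran from -0.13 to 0.09.

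Complex IV, cytochrome c oxidase, has several subunits with tissue-specific paralogues. Its 28 tested probe sets had 21 lower and a median of -0.053, with 17 lower and -0.020 under the deposited scaling and 7 lower and 0.048 with median centring. The 5 member genes with no tested probe set, all dim on this array, were Cox6b2, Cox7a1, Cox7b2 and Cox8b of this complex and Ndufa4l2, the paralogue of Ndufa4. Cox7a1 and Cox8b are known as heart and muscle forms and Cox6b2 as a testis form.

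Among the paralogues that were measured, the ubiquitous Cox4i1 read 9431, 9356 and 9260 in the controls and 8693, 9051 and 9084 in the deficient arrays, a log2 difference of -0.06 with non-overlapping groups under quantile normalisation and overlapping ones under the deposited scaling. Cox4i2, a form known from lung, was dim at 248 ± 4.43 and 234 ± 7.81 (SD, n = 3 each). Cox6a1 was at -0.13 and -0.10, against -0.01 for the muscle form Cox6a2. Cox6b1 was at -0.13 and -0.05, Cox7a2 at 0.05 and 0.03, and Cox8a at -0.10 and -0.09. Cox7a2l, which helps to join complexes III and IV into supercomplexes, had a probe set at 8124, 7733 and 7266 in the controls and 6688, 6664 and 7472 in the deficient arrays (a log2 difference of -0.15, with adjusted p = 0.692). The groups overlapped through deficient replicate 3, and the remaining Cox7a2l probe sets gave -0.10 and 0.02.

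Cox8c, known as a testis form, was lower on both probe sets, at -0.30 and -0.37, with overlapping groups on both. The brighter one, which was at -0.17 without Ezh2 fl/fl replicate 1 and -0.44 without replicate 3, read 1626, 1359 and 1109 in the controls and 1089, 1181 and 988 in the deficient arrays (adjusted p = 0.692). Cox7c was the one member higher at an unadjusted p under 0.05. Its dim probe set read 145, 133 and 145 in the controls and 190, 177 and 233 in the deficient arrays (a log2 difference of 0.39, SE 0.15, with adjusted p = 0.653), with non-overlapping groups under both scalings. The other Cox7c probe set was at 0.16 with overlapping groups. Cox6c was at 0.12 on one probe set (0.04 without Ezh2 fl/fl replicate 1) and -0.02 on the other, brighter one. Ndufa4, named as a complex I gene but now placed in complex IV, read 4702, 4850 and 4544 in the controls and 4544, 4620 and 4875 in the deficient arrays, a difference of -0.01 that was 0.03 under the deposited scaling.

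Complex V makes ATP with a catalytic F1 head and a part in the membrane that holds the rotating ring of c subunits. Its 29 tested probe sets had 23 lower and a median of -0.054, with 16 lower and -0.020 under the deposited scaling and 7 lower and 0.048 with median centring. The F1 subunits Atp5a1, Atp5b, Atp5c1, Atp5d and Atp5e had 7 of 9 probe sets lower with a median of -0.017 (4 of 9 and 0.027 under the deposited scaling, 3 of 9 and 0.094 with median centring), and the other Atp5 genes 16 of 20 with a median of -0.064 (12 of 20 and -0.030, then 4 of 20 and 0.037).

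The smallest adjusted p in complex V was that of a small F1 subunit. Atp5e, the epsilon subunit, read 3988, 4030 and 4102 in the controls and 3206, 3832 and 3306 in the deficient arrays (a log2 difference of -0.23, SE 0.08, with adjusted p = 0.619). The controls were tight and the deficient arrays spread below them under quantile normalisation, but under the deposited scaling the groups overlapped, as for every lower probe set of complex V. Atp5d, the delta subunit, was lower on both probe sets, at -0.12 and -0.20 (adjusted p = 0.646 for each); the brighter read 7749, 7922 and 7890 in the controls and 7273, 7296 and 7038 in the deficient arrays, which did not overlap, and the other overlapped. Atp5l, a subunit of the membrane part, read 4711, 5000 and 4245 in the controls and 3603, 4481 and 3403 in the deficient arrays (a log2 difference of -0.28, SE 0.11, with adjusted p = 0.636), with overlap through deficient replicate 2.

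The large subunits of the head lay nearer to 0 on their bright probe sets. Atp5b, the beta subunit (named after its value was seen), read 12294, 12451 and 13156 in the controls and 12779, 12267 and 12751 in the deficient arrays, a difference of -0.00 under quantile normalisation. Atp5a1, the alpha subunit, was at -0.04 and -0.02 on its bright probe sets and at 0.18 with non-overlapping groups on a dimmer one (701, 782 and 696 against 790, 897 and 803). The c subunits of the ring are encoded by 3 genes: Atp5g1 was at -0.11, Atp5g2 at -0.02 and -0.07, and Atp5g3 at 0.05, all with overlapping groups. Atp5h, of the stalk, was at -0.08 with non-overlapping groups on one probe set and at 0.09 on the other, brighter one.

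**Figure D4:**
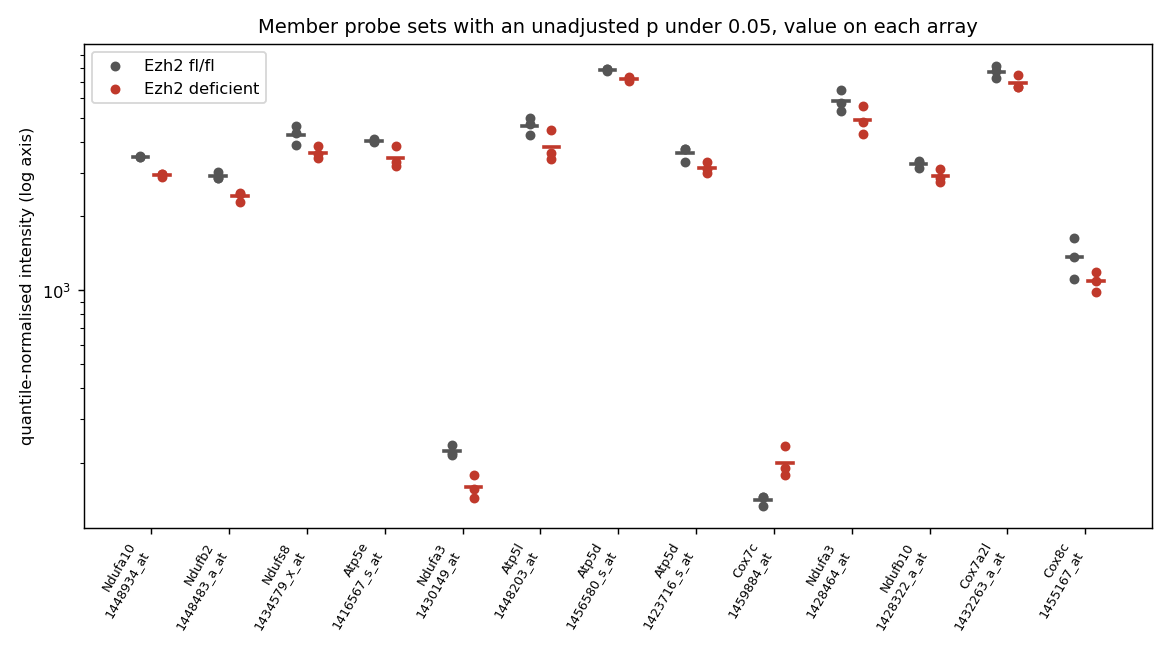
Quantile-normalised intensity on each array (log y axis) of the 13 member probe sets with an unadjusted p under 0.05 (x axis, ordered by p), with Ezh2 fl/fl arrays in grey and Ezh2 deficient arrays in red; bars are means of 3 arrays. In 12 of the 13 the deficient mean is the lower, and Cox7c is the exception.

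Probe sets of the same gene often differed. Of 50 genes with more than 1 tested probe set, 24 had all of them lower, 4 all higher and 22 on both sides of 0, with a median range within a gene of 0.10 on the log2 scale. The widest range was that of Ndufa10, at 0.52. With only the brightest probe set of each gene, 74 of 86 genes were lower under quantile normalisation and 52 of 86 under the deposited scaling, with medians of -0.053 and -0.024.

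No gene of the other mitochondrial lists was called by limma, and the list medians ran from -0.079 for antioxidant enzymes to 0.003 for dynamics and import genes under quantile normalisation. Of 76 genes of the mitochondrial ribosome, which translates the subunits encoded in mitochondrial DNA, 58 were lower under quantile normalisation and 55 under the deposited scaling, with medians of -0.065 and -0.055. Mrps21, with the smallest p among them, read 2106, 1711 and 1781 in the controls and 1333, 1338 and 1571 in the deficient arrays (a log2 difference of -0.39, with adjusted p = 0.532). Of 16 citric acid cycle and pyruvate dehydrogenase genes 11 were lower under either scaling, with medians of -0.043 and -0.012, and Suclg2, a succinyl-CoA ligase subunit, was at -0.16. Of 33 other assembly factors 21 were lower under quantile normalisation and 18 under the deposited scaling. Atpaf1, which assembles the F1 head, was the one with the smallest p, at 0.26, with 733, 823 and 870 in the controls and 983, 973 and 964 in the deficient arrays.

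The lists of regulators, carriers and import genes follow. Of 18 biogenesis regulators 10 were lower under either scaling, with Tfeb, a lysosomal and mitochondrial regulator, at -0.28 with overlapping groups. Of 10 carriers and channels 5 were lower under quantile normalisation and 3 under the deposited scaling, with the citrate carrier Slc25a1 at -0.17. Of 19 dynamics and import genes 9 were lower and 10 higher under quantile normalisation, and 5 lower and 14 higher under the deposited scaling. Among these Lonp1, the protease of the mitochondrial matrix, read 820, 568 and 598 in the controls and 1021, 994 and 946 in the deficient arrays (a log2 difference of 0.56, SE 0.13, with adjusted p = 0.483). Of 7 antioxidant enzymes 6 were lower under either scaling, with Gpx4 at -0.14. The one mitochondrially encoded subunit named on the array, ND5 of complex I, read 16559, 14740 and 14938 in the controls and 14109, 14908 and 14018 in the deficient arrays, a difference of -0.10 with overlap (adjusted p = 0.722).

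Some other measures moved with the groups. The summed level of the 10 T cell markers ran from 88372 to 90796 in the controls and from 87000 to 88079 in the deficient arrays, that of the 6 macrophage markers from 1066 to 1119 and from 893 to 1047, and that of the 3 neutrophil markers from 248 to 309 and from 311 to 400. Single markers went both ways. Of the T cell markers 7 were lower, among them Cd8b1 (mean 12247 in the controls, 10914 in the deficient arrays), and 3 higher. Of the 4 macrophage markers above the filter 3 were lower, among them Csf1r (371 and 264), and 1, Adgre1, was higher (186 and 229). Only 1 neutrophil marker, Mpo, lay above the filter. The sums of the 7 B cell, 6 dendritic cell, 4 natural killer, 3 erythroid and 6 stromal and endothelial markers overlapped between the groups. The ratio of the 3' to the 5' control probe set, a sign of RNA integrity, was 0.703 to 0.780 in the controls and 0.747 to 0.813 in the deficient arrays for Gapdh, and 1.16 to 1.18 and 1.18 to 1.21 for Actb, which overlapped. Their part in the small shift of the respiratory chain genes was not tested.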

How the data were processed

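The deposited table gives 1 linear intensity per probe set and array; the authors' software and settings were not stated in any label or header used. Its trimmed mean was 500.002 on every array. Gene symbols came from the platform annotation. Arrays were quantile normalised, and the deposited scaling was kept beside it. A pseudocount of 43.3 (the 20th percentile of the positive intensities) was added before taking log2, so differences of dim probe sets are understated. The 64 control probe sets and those with a mean below the 40th percentile were left out, which left 27022. limma 3.58.1 (R 4.3.3) was fitted to the whole table with an intensity trend, two-sided, with Benjamini-Hochberg adjustment over all tested probe sets. A run on simulated data planted changes larger than the member differences given here, so it does not speak of differences this small.

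Named were, per complex, the 3 genes with the smallest p in each direction, all Sdh genes, Cycs and paralogue sets, and per list the gene with the smallest p. The members and lists were chosen with earlier results of these data known. Alternatives covered scaling, pseudocount, filter, variance model, choice of probe sets and each array left out. The number of arrays limits the precision. Lists enter with the brightest probe set per gene.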

Additional observations from a re-analysis of the deposited data

How the results depend on the processing

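The 0 members called at an adjusted p under 0.05 stayed at 0 under all 17 alternatives fixed for it. The 13 members at an unadjusted p under 0.05 (12 lower) became 7 (7 lower) under the deposited scaling, 3 (1 lower) with its median centring, 4 (3 lower) by eBayes without trend and 8 with one probe set per gene, and ran from 4 to 11 (4 to 11 lower) with an array left out, with the lowest count without Ezh2 deficient replicate 1. With median centring 1.198% of the members were higher and 0.5988% lower at that p, against 6.003% and 1.961% of all tested probe sets. Both shares were below the background. Without Ezh2 fl/fl replicate 1, under quantile normalisation, they were 0.5988% and 5.988%, against 3.667% and 3.271%. For eBayes without trend, one probe set per gene and the other arrays left out, no background was set beside the counts. Those changes cannot be told from changes over all probe sets. The count of members higher, 41, became 64 under the deposited scaling, 113 with median centring, 12 of 86 with one probe set per gene and 25 of 126 in the brightest 20%, and ran from 38 to 57 with an array left out. The median difference of -0.053 became -0.021 under the deposited scaling and 0.047 with median centring, and ran from -0.060 to -0.030 with an array left out, the latter without Ezh2 fl/fl replicate 3. Under the deposited scaling the medians of complexes I, III, IV and V were -0.027, -0.037, -0.020 and -0.020. With median centring those of complexes I to V and cytochrome c were 0.041, 0.061, 0.030, 0.048, 0.048 and 0.068. The complex III median was -0.052 without the filter and -0.055 without _s_at and _x_at probe sets, and the complex II median was -0.066 with one probe set per gene. With an array left out the medians ran from -0.074 to -0.029 for complex I, -0.077 to 0.007 for complex II, -0.082 to -0.010 for complex III, -0.067 to -0.036 for complex IV, -0.056 to -0.035 for complex V and -0.082 to 0.002 for cytochrome c. Of 36 named genes, each followed on 1 probe set, 25 kept their sign throughout. Many of them were named for a small p in these same data, so a steady sign was partly set by that choice. With median centring, which adds 0.068 to every probe set's difference under the deposited scaling, the sign turned for Cox8a (0.01), Atp5h (0.02), Sdha (0.01), Cox4i1 (0.05), Cycs (0.03), Sdhb (0.06), Sdhd (0.05), Ndufa4 (0.09) and Cox6a2 (0.02), and under the deposited scaling for Ndufa4 (0.03). With an array left out it turned for Cox7a2 (-0.02 to 0.10), Atp5g2 (-0.16 to 0.06), Sdhd (-0.16 to 0.06), Ndufa4 (-0.04 to 0.02) and Cox6a2 (-0.23 to 0.10). The brightest 20% and the deposited scaling without Ezh2 fl/fl replicate 1 were added after seeing the data. No paired analysis was possible because the array numbers in the labels run on from one group to the other and none is shared.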
